A study of Mus musculus with 6 samples.

Results

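The genes of 10 enzymes that turn cholesterol into bile acids were followed in mouse hepatic tissue: Cyp7a1, Cyp7b1, Cyp8b1, Cyp27a1, Cyp39a1, Hsd3b7, Akr1d1, Amacr, Acox2 and Baat. They were picked by name as enzymes of the classic and alternative pathways, and all 10 were found among the 25690 genes of the deposited table. The RNA-seq libraries fall into 2 genotypes, 3 labelled as wildtype control and 3 as hepatic FTO knockout, and the question is which hepatic transcripts differ between them. FTO removes methyl groups from N6-methyladenosine (m6A), a modified base of messenger RNA. The labels name no treatment, and strain, age, the deleted part of Fto and the driver of the deletion are not given in the sources used here. The sex of the animals, and whether it matched between the groups, is not reported here. The labels do not say that each library came from its own animal, so p-values measure the spread between these libraries, which may be technical.

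Bile acids are made from cholesterol in hepatocytes. The classic pathway opens with CYP7A1, which hydroxylates cholesterol at carbon 7 and sets the pace of the pathway, and the alternative pathway opens with oxysterols made by CYP27A1 in mitochondria, which CYP7B1 then hydroxylates. HSD3B7 and AKR1D1 rebuild the sterol ring, CYP8B1 adds the 12-alpha hydroxyl group that makes cholic acid, AMACR and ACOX2 shorten the side chain in peroxisomes, and BAAT joins the finished acid to taurine or glycine. Cyp7a1 is known as a gene that bile acids repress through the nuclear receptor FXR and that follows the daily clock, and Cyp7b1 as a gene with a higher level in male than in female mouse liver.

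Of the 10 genes, Cyp7a1 and Cyp7b1 rose in the knockout, 0 fell and 8 were not called, by limma on log2(FPKM + 1) with a Benjamini-Hochberg adjusted p under 0.05 over all 10405 genes whose mean reached 1 FPKM. Of all tested genes 2.76% were called, 1.11% higher and 1.65% lower. FPKM counts fragments per kilobase of transcript, scaled to the mapped fragments of the library, and so allows levels of different genes to be compared. All 10 genes passed that minimum. An unadjusted p under 0.05 was reached by 6 of the 10, of which Cyp7a1, Cyp7b1 and Cyp39a1 lay above wild type and Cyp8b1, Akr1d1 and Acox2 below, and by 18.7% of all tested genes. For 8 of the 10 genes the groups did not overlap, against 24.5% of all tested genes. The knockout libraries lay above all wild type libraries for 4 of these (11.5% of all tested genes) and below them for the other 4 (13.0%). Only Cyp27a1 and Baat had overlapping groups. The 10 genes were chosen with earlier results of these data known, so setting them beside all tested genes is no test of the set. The median log2 change was 0.05 over the 10 genes and -0.00182 over all tested genes, with 5 of the 10 above 0 and 5 below.

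Fto itself was at 6.67, 6.02 and 6.40 FPKM for wild type replicates 1, 2 and 3 and at 1.79, 3.83 and 2.66 FPKM in knockout replicates 1, 2 and 3. It fell from a mean of 6.36 ± 0.324 to 2.76 ± 1.02 FPKM (SD, n = 3 each; limma adjusted p 0.0386), and lost its call in 4 of 6 fits that each left out a library (0.0662 to 0.146), those without wild type replicates 1 and 2 and knockout replicates 1 and 3. Of 12 hepatocyte markers other than Alb, every one was at least at 64.6 FPKM in each library, and Ahsg was called higher (limma adjusted p 0.0425), a call kept in 3 of 11 alternatives (up to 0.201). Alb itself is listed at 0 for the first wild type and the third knockout library, which can be a failed estimate. The bile duct marker Krt19 was at 0.781 FPKM or less, and the gut markers Fabp6, Sis, Lct and Alpi were listed at 0 throughout. Wild type replicate 3 stood apart: its median absolute log2 difference from replicates 1 and 2 over 774 genes of high level was 0.414 and 0.289, against 0.142 between those libraries. From the knockout libraries wild type replicate 3 differed by 0.316 to 0.323, and wild type replicates 1 and 2 by 0.202 to 0.346. Spread within wild type was thus as large as some differences between the groups. In bulk tissue, fewer cells of a type and less RNA per cell cannot be told apart.

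**Figure D1:**
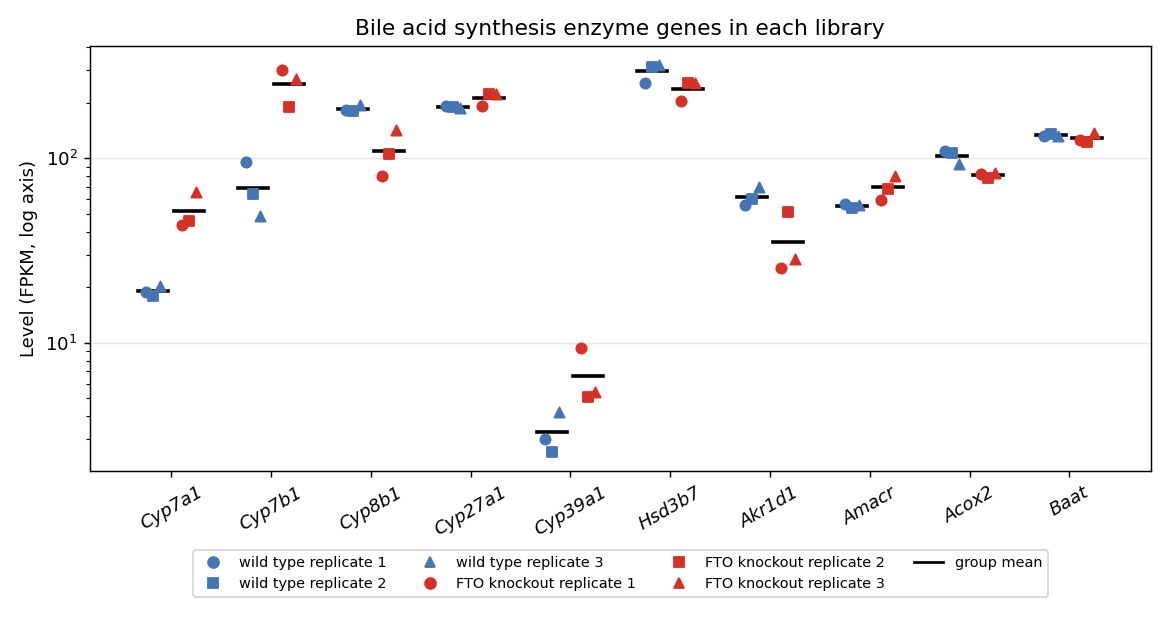
Level of each enzyme gene in FPKM (log axis) in the 3 wild type (blue) and 3 FTO knockout (red) libraries, with 1 point per library and a black line at the group mean. The knockout points of Cyp7a1 (43.7 to 65.2) and Cyp7b1 (190.1 to 303) lie above all wild type points, and those of Cyp8b1 (79.8 to 142) lie below them.

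Cyp7a1, the entry enzyme of the classic pathway (ENSMUSG00000028240, chromosome 4, 6265612 to 6275633, mm10), was at 18.8, 18.0 and 20.4 FPKM for wild type replicates 1, 2 and 3. In knockout replicates 1, 2 and 3 it was at 43.7, 45.7 and 65.2 FPKM. The lowest knockout library was thus more than double the highest wild type library, and knockout replicate 3 stood above the other knockout libraries. The change was 1.37 on the log2 scale (SE 0.17, 95% interval 0.98 to 1.75) with a limma adjusted p of 0.00723. Cyp7a1 was called higher under all 11 alternative settings and left-out libraries, with log2 changes of 1.19 to 1.47 and adjusted p-values of 0.00374 to 0.0338.

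Hsd3b7, which oxidises the 3-beta hydroxyl group of the sterols made by both entry routes (chromosome 7, 127800604 to 127803802), was the most abundant of the 10 genes in wild type, at 257, 311 and 319 FPKM. It was at 205, 256 and 255 FPKM in knockout replicates 1, 2 and 3. Those values all lay below the lowest wild type library, replicates 2 and 3 only just. Their gap of about 1 FPKM was small beside the SDs of 34.1 and 29.0. The log2 change of -0.31 (95% interval -0.66 to 0.04) was not called, with an adjusted p of 0.322 in limma. In the annotation Hsd3b7 shares its span with Gm49388 on the same strand and with 9430064I24Rik on the opposite strand, so its value may include their reads.

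Akr1d1, the 5-beta-reductase that bends the sterol ring (chromosome 6, 37530173 to 37568815), was at 56.0, 59.9 and 69.7 FPKM in wild type. Knockout replicates 1 and 3 were at 25.3 and 28.5 FPKM, but knockout replicate 2, at 51.4 FPKM, was close to the wild type libraries. Akr1d1 had the largest coefficient of variation of the 10 genes in knockout, 40.6%. Its log2 change was -0.86 (SE 0.25, 95% interval -1.45 to -0.28) with a limma adjusted p of 0.126. Without knockout replicate 2 it was called lower, at a log2 change of -1.17 and an adjusted p of 0.0202. Knockout replicate 2 was also the knockout library with the most Fto, and whether this bears on Akr1d1 was not tested.

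Cyp8b1, the sterol 12-alpha-hydroxylase (ENSMUSG00000050445, chromosome 9, 121914356 to 121916305), was at 183, 179 and 194 FPKM in wild type, a spread of 4.18% of the mean. The knockout libraries were at 79.8, 105 and 142 FPKM, spread over 28.8% of their mean and all below wild type. The mean was 1.70-fold lower in knockout, a log2 change of -0.80 (SE 0.20, 95% interval -1.27 to -0.33). After adjustment over all genes Cyp8b1 missed the threshold, with a limma p of 0.0882. It was called in 0 of 11 alternatives, where the adjusted p ran from 0.0596 to 0.235.

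Because Cyp8b1 and Akr1d1 had the lowest knockout levels relative to wild type, their promoters are shown, from 250 bases before to 50 bases after the start site in RefSeq (GRCm38.p6), 5′ to 3′ on the gene's strand. Capitals mark matches to the motifs searched. These were AGGTCA, the half-site of many nuclear receptors, TCAAGGTCA, bound by LRH-1, CAAAGTCCA, an HNF4-type site, AGGTCANTGACCT, an FXR-type inverted repeat, and TTATGTAA, a D-box of the clock output factors, all on both strands, and TATAAA on the gene's strand. TCAAGGTCA and AGGTCANTGACCT contain the half-site.
Cyp8b1, chr9:121916256-121916555, minus strand: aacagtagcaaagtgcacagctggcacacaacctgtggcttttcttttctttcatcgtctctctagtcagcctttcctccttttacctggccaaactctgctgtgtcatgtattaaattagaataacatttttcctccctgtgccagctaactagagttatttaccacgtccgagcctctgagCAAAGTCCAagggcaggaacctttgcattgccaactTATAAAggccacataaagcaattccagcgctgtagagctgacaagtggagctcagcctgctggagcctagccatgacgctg
Akr1d1, chr6:37529923-37530222, plus strand: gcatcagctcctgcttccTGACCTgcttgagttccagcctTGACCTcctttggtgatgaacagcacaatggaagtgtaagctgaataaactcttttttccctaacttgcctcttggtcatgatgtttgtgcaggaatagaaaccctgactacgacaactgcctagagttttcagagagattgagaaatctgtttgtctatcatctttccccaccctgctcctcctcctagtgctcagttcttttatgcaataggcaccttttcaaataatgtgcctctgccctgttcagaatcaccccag
The Cyp8b1 promoter held CAAAGTCCA 67 bases before the start site, a motif present in 0.475% of the 32851 promoters in the table, and TATAAA 31 bases before it (8.32% of promoters). Akr1d1 held the half-site on the opposite strand, 232 and 210 bases before its start site (16.3% of promoters hold at least 1). Promoters of Acox2, Cyp27a1 and Hsd3b7 held none of these letters. Those of Cyp7a1, Cyp7b1, Cyp39a1, Amacr and Baat were not analysed here. A match is a description of letters and not a bound site.

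Cyp27a1, the mitochondrial sterol 27-hydroxylase that starts the alternative pathway (chromosome 1, 74713574 to 74737892), was at 193, 191 and 187 FPKM across wild type and at 193, 224 and 222 FPKM in knockout. Knockout replicate 1 lay inside the wild type range. The log2 change was 0.16 with a 95% interval of -0.11 to 0.43 (limma adjusted p 0.527), so the first enzyme of this pathway was not called while the next, Cyp7b1, was.

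Cyp7b1, the oxysterol 7-alpha-hydroxylase (ENSMUSG00000039519, chromosome 3, 18071950 to 18243338), was at 96.0, 63.7 and 48.4 FPKM for wild type replicates 1, 2 and 3. In knockout it was at 303, 190.1 and 268 FPKM. It had the widest wild type spread of the 10 genes, a coefficient of variation of 35.0%, yet the lowest knockout library was well above the highest wild type library. The log2 change was 1.89 (SE 0.27, 95% interval 1.26 to 2.51) with a limma adjusted p of 0.0141. The call was lost without wild type replicate 2 (adjusted p 0.0512), knockout replicate 1 (0.0601) or knockout replicate 3 (0.0798), while the log2 change stayed between 1.66 and 2.14 in all 11 alternatives.

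Cyp39a1, which hydroxylates 24-hydroxycholesterol (chromosome 17, 43667425 to 43751431), was the least abundant of the 10 genes. It was at 3.01, 2.57 and 4.21 FPKM across wild type and 9.34, 5.10 and 5.38 FPKM in knockout, where replicate 1 stood above the others. The mean was 2.02-fold higher in knockout, a log2 change of 0.81 (95% interval 0.28 to 1.34), and was not called (limma adjusted p 0.116).

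Amacr, the racemase that readies the side chain for shortening (chromosome 15, 10981756 to 10996626), was at 56.3, 53.6 and 56.0 FPKM across wild type and 59.3, 68.5 and 80.6 FPKM in knockout. Its knockout libraries lay above wild type, with a log2 change of 0.31 (limma adjusted p 0.274). Acox2, the oxidase of the branched side chain (chromosome 14, 8225511 to 8259353), was at 109.7, 106 and 93.5 FPKM across wild type and 82.5, 78.3 and 82.9 FPKM in knockout. Its knockout libraries lay below wild type, with a log2 change of -0.34 (adjusted p 0.172 in limma). These enzymes of peroxisomal side chain shortening thus had differences of opposite sign, and neither was called. Baat, the conjugating enzyme (chromosome 4, 49489422 to 49506557), was at 132, 136 and 132 FPKM across wild type and 125, 123 and 137 FPKM in knockout. The groups overlapped, and the 95% interval of the log2 change, -0.31 to 0.20, bounds the difference of Baat more tightly than that of any other of the 10 genes (limma adjusted p 0.843).

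**Figure D2:**
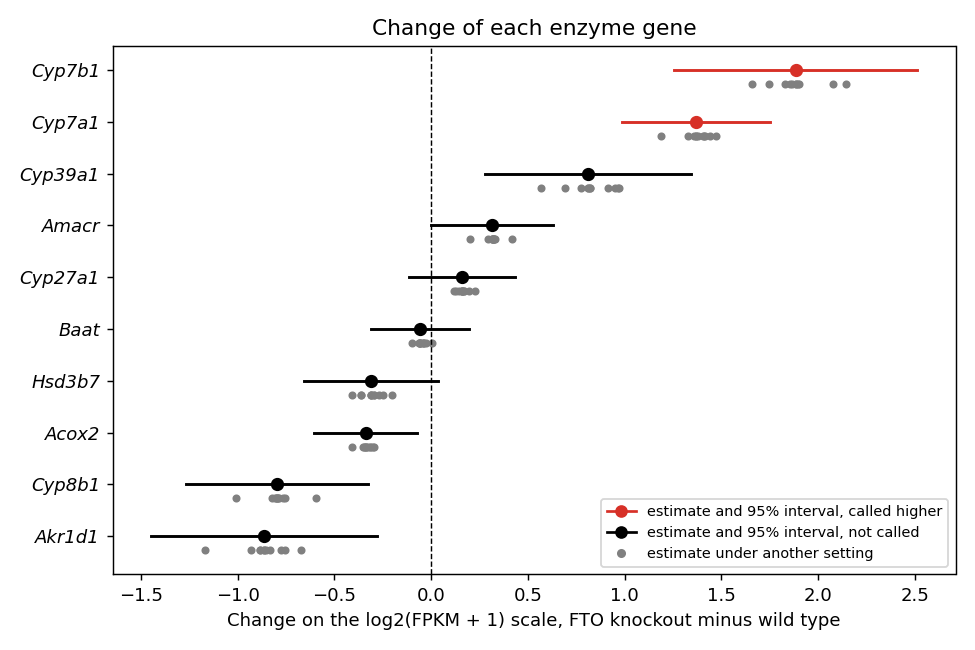
Change of each enzyme gene on the log2(FPKM + 1) scale, knockout minus wild type, as the limma estimate with its 95% interval (red, called higher; black, not called), and grey points for the estimates under 11 other settings. Cyp7b1 (1.89) and Cyp7a1 (1.37) lie farthest to the right and Akr1d1 (-0.86) farthest to the left.

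The order of levels also differed. In wild type the mean fell from Hsd3b7 (296 FPKM) through Cyp27a1 (190.2), Cyp8b1 (186), Baat (133), Acox2 (103), Cyp7b1 (69.4), Akr1d1 (61.9), Amacr (55.3) and Cyp7a1 (19.0) to Cyp39a1 (3.27). Neighbours with overlapping libraries were Cyp27a1 and Cyp8b1, Acox2 and Cyp7b1, Cyp7b1 and Akr1d1, and Akr1d1 and Amacr. In knockout Cyp7b1 had the highest mean of the 10 (254 FPKM), though its libraries overlapped those of Hsd3b7 (239), whose libraries in turn overlapped those of Cyp27a1 (213). Cyp8b1, at 109 FPKM, was at rank 5 and overlapped Baat (128) and Acox2 (81.3). The coefficient of variation within knockout exceeded that within wild type for Cyp7a1 (23.1% against 6.40%), Cyp8b1, Cyp27a1, Cyp39a1, Akr1d1, Amacr and Baat. For Hsd3b7 it did so only slightly (12.2% against 11.5%), and it was smaller for Cyp7b1 and Acox2. The SD in FPKM went the other way for Hsd3b7 (29.0 in knockout, 34.1 in wild type) and Cyp7b1 (57.7 and 24.3).

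The summed level of the 10 genes was 1105, 1121 and 1125 FPKM across wild type and 1126, 1148 and 1287 FPKM in knockout, so the nearest libraries of the groups were within 1 FPKM of each other. The make-up of that sum moved more. Cyp7b1 made up 6.22% ± 2.24 of it in wild type and 21.4% ± 5.19 in knockout, and Cyp7a1 1.70% ± 0.104 and 4.31% ± 0.658 (SD, n = 3 each). Cyp8b1 made up 16.6% ± 0.637 and 9.11% ± 1.99, Hsd3b7 26.5% ± 2.81 and 20.1% ± 2.03, and Akr1d1 5.54% ± 0.588 and 2.98% ± 1.30. The shares are parts of 1 whole, so a larger share of Cyp7b1 lowers the others by construction.

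**Figure D3:**
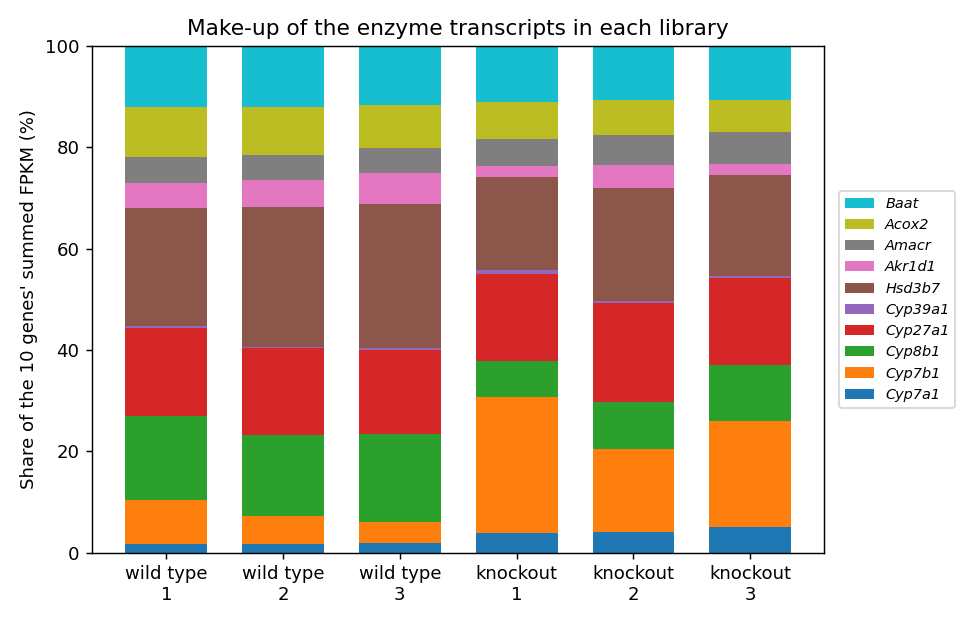
Share of the summed FPKM of the 10 enzyme genes held by each gene, in percent, as 1 stacked bar per library (wild type 1 to 3, knockout 1 to 3). The Cyp7b1 segment spans 4.30% to 8.69% in wild type and 16.6% to 26.9% in knockout, and the Cyp8b1 segment averages 16.6% and 9.11%.

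The ratio of 2 genes within a library does not depend on how libraries are scaled. Cyp8b1 stood at 9.74, 9.99 and 9.54 times the level of Cyp7a1 in wild type replicates 1, 2 and 3, and at 1.83, 2.31 and 2.18 times in knockout replicates 1, 2 and 3. The groups lay far apart and each was tight. On the log2 scale the ratio was 3.29 ± 0.03 in wild type and 1.07 ± 0.18 in knockout (SD, n = 3 each), a difference of -2.22. The exact two-sided permutation test gave p = 0.1, the smallest that 3 against 3 allows. Without any 1 library the difference was -2.29 to -2.12. Both genes of this ratio had non-overlapping groups of opposite direction, so the gap restates those differences on 1 scale.

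The ratio of Cyp7b1 to Cyp7a1, the hydroxylases that open carbon 7 in the alternative and classic pathways, was 5.10, 3.55 and 2.38 in wild type and 6.93, 4.16 and 4.11 in knockout. These groups overlapped. The log2 ratio was 1.81 ± 0.55 and 2.30 ± 0.43 (SD, n = 3 each), with an exact two-sided permutation p of 0.4. The difference of 0.49 was smaller than the SD within wild type.

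**Figure D4:**
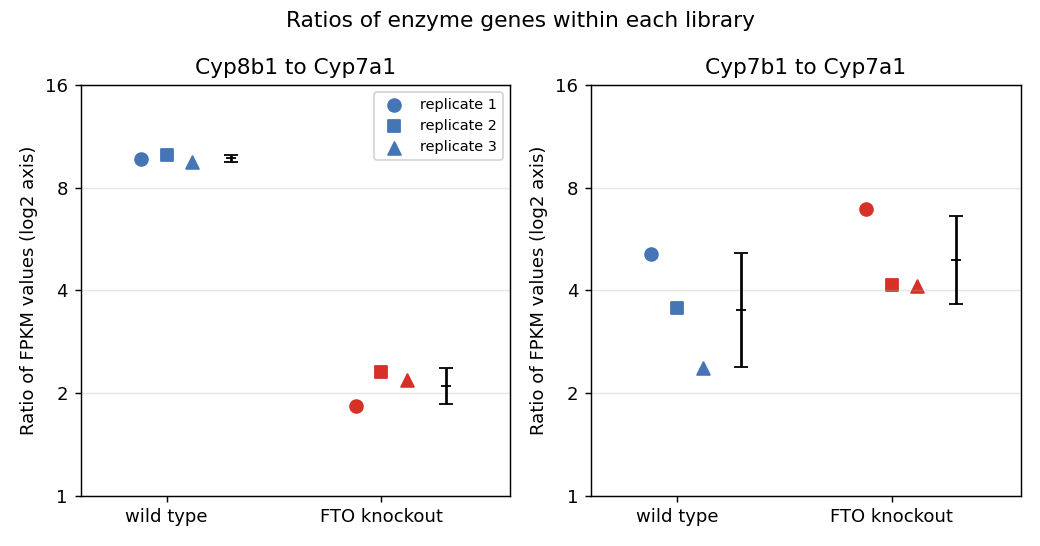
Ratio of FPKM values within each library (log2 axis) for Cyp8b1 to Cyp7a1 (left) and Cyp7b1 to Cyp7a1 (right), 1 point per library (blue, wild type; red, knockout); black marks give the mean ± SD of the log2 ratio. On the left the wild type libraries lie at 9.54 to 9.99 and the knockout libraries at 1.83 to 2.31; on the right 2.38 to 5.10 and 4.11 to 6.93 overlap.

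Among 13 other tested genes of bile acid synthesis, limma called 1 higher and 0 lower and left 12 uncalled. At an unadjusted p under 0.05 the counts were 1 and 3. The median log2 change of these 13 was -0.17. Cyp2c70, the P450 enzyme that makes the muricholic acids of mice, was at 121, 121 and 122 FPKM across wild type and 303, 287 and 249 FPKM in knockout. It rose by 1.19 on the log2 scale (SE 0.12, limma adjusted p 0.00395) and was called in all 11 alternatives, though it belongs to a family of similar genes among which reads may be shared. Cyp2c70 therefore rose beside Cyp7a1 and Cyp7b1.

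Genes that act on the side chain or carry its intermediates were not called. Hsd17b4, the bifunctional enzyme that follows ACOX2, was at 202, 192 and 189 FPKM across wild type and 156, 133 and 156 FPKM in knockout (limma adjusted p 0.140). Abcd3, a transporter of bile acid intermediates into peroxisomes, was at 519, 337 and 324 against 312, 237 and 249 FPKM (adjusted p 0.224 in limma). Both had all knockout libraries below wild type, as Acox2 did. Groups overlapped for the carrier gene Scp2, for the acyl-CoA synthetase genes Slc27a5 and Slc27a2, and for the thioesterase gene Acot8, with limma adjusted p-values of 0.377 to 0.774.

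Among the remaining enzymes, Cyp46a1, which makes the 24-hydroxycholesterol that CYP39A1 uses, was at 2.15, 2.98 and 3.39 FPKM across wild type and 0.954, 1.74 and 0.739 FPKM in knockout. Its difference was opposite in sign to that of Cyp39a1 and was not called (limma adjusted p 0.0691), but without knockout replicate 2 it was (0.0410). Akr1c6, Akr1c14, Cyp2a12, Sult2a8 and Srd5a1, which act on sterols or finished bile acids, had overlapping groups and limma adjusted p-values of 0.398 to 0.994. The oxysterol enzyme gene Ch25h was at 0.0715 FPKM or less in all libraries and was not tested.

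Of 24 tested regulators of the pathway, limma called 1 higher and 0 lower and left 23 uncalled. Their median log2 change was 0.09, and an unadjusted p under 0.05 was reached by 3 above and 2 below wild type. Onecut1, a hepatocyte transcription factor, was at 1.46, 0.896 and 1.55 FPKM across wild type and 6.93, 3.09 and 4.13 FPKM in knockout. It rose by 1.27 on the log2 scale (adjusted p 0.0391 in limma), but was no longer called when wild type replicate 1, wild type replicate 2, knockout replicate 1 or knockout replicate 3 was dropped (0.0601 to 0.138).

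The bile acid receptor gene Nr1h4 (FXR) was at 69.9, 64.2 and 60.9 FPKM across wild type and 79.4, 65.0 and 64.4 FPKM in knockout, with overlapping groups. Nr0b2 (SHP), the repressor that FXR induces, was at 20.1, 24.0 and 21.7 against 24.5, 25.2 and 25.4 FPKM. Its knockout libraries lay above wild type, knockout replicate 1 only just, with a log2 change of 0.19 and a 95% interval of -0.07 to 0.44. Neither Nr1h4 nor Nr0b2 was called, with limma adjusted p-values of 0.764 and 0.418. Hnf4a, an activator of both Cyp7a1 and Cyp8b1, was at 76.6, 74.3 and 64.6 against 83.4, 83.9 and 101.6 FPKM (adjusted p 0.258 in limma). Its groups did not overlap, with knockout above, the direction of Cyp7a1 and not of Cyp8b1. The pregnane X receptor gene Nr1i2 was at 28.2, 26.5 and 33.6 against 18.1, 19.6 and 21.8 FPKM, all knockout libraries below wild type (limma adjusted p 0.0774). For the LRH-1 gene Nr5a2, the LXR alpha gene Nr1h3 and the FGF receptor genes Fgfr4 and Klb, the groups overlapped. Fgf15, a gut hormone gene, was listed at 0 in all libraries.

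Of 12 tested targets of FXR limma called 0, and an unadjusted p under 0.05 was reached by 3 above and 1 below wild type. Those of smallest p were Pltp, below wild type, and Fetub and Fgg, above it (limma adjusted p 0.0562, 0.128 and 0.135). Pltp is also on the LXR list and is counted in both. Of 11 tested targets of LXR, which in mouse include Cyp7a1 itself, Cyp7a1 was higher and the desaturase gene Scd1 was lower, and 5 lay below wild type at an unadjusted p under 0.05. The median log2 change of these 11 was -0.33, and 9 of them lay below 0, most of them uncalled, while Cyp7a1 lay above 0. Whether LXR bears on Cyp7a1 was not tested. Scd1 was not called without wild type replicate 2 (adjusted p 0.0527) or knockout replicate 3 (0.0828) in limma.

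Among 11 tested transporters of bile acids and sterols, limma called 0 higher and 1 lower, and 1 and 5 reached an unadjusted p under 0.05. Abcc2, an exporter of conjugates into bile, fell from 60.3, 64.1 and 67.7 FPKM in wild type to 35.0, 44.2 and 41.0 FPKM in knockout (adjusted p 0.0385 in limma). This call held in only 1 of 6 fits with a library left out, that without wild type replicate 3, and the adjusted p was 0.0595 to 0.153 in the others. Abcc3, an exporter toward the blood, was at 65.6, 62.6 and 35.7 against 28.2, 22.3 and 19.1 FPKM, with groups apart and a limma adjusted p of 0.0542. The uptake carrier gene Slco1a1, also on the male-biased list, was at 64.5, 46.6 and 20.6 against 88.0, 108.9 and 104.7 FPKM (adjusted p 0.110 in limma), again with groups apart. Without wild type replicate 3 limma called Slco1a1 higher (0.0344) and both Abcc3 (0.00700) and Abcc2 lower, and without wild type replicate 1 it called Slco1a1 higher (0.0439) and 0 lower. The bile salt export pump gene Abcb11 was at 141, 139 and 74.4 against 123, 98.9 and 94.2 FPKM, and the main uptake carrier gene Slc10a1 at 385, 331 and 388 against 236, 343 and 299 FPKM. Both had overlapping groups. Of 23 genes of cholesterol synthesis and uptake, Sqle was higher and 0 were lower, at 3.97, 2.36 and 3.29 against 8.02, 8.64 and 13.0 FPKM. The median log2 change of these 23 was 0.25, with 18 above 0, and 8 above and 0 below wild type reached an unadjusted p under 0.05. Without wild type replicate 3 the number called higher was 4, and without wild type replicate 2 or knockout replicate 3 it was 0.

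Other features of the libraries moved with Cyp7b1. Of 18 genes with a male bias in mouse liver, Cyp7b1 among them, 7 were higher and 1 was lower by limma. Of 11 tested female-biased genes 7 were lower and 0 higher. Of all tested genes 1.11% were called higher and 1.65% lower. The lists were chosen with earlier results of these data known, so these counts are no test of the lists. The higher male-biased genes beside Cyp7b1 were Selenbp2, Serpina1e, Mup20, C6, C8b and Nudt7, with log2 changes of 1.24 to 2.14. The lower male-biased gene was Ces2e (-1.17). Selenbp2 was at 61.7, 80.8 and 70.9 FPKM across wild type and 271, 331 and 349.8 FPKM in knockout. The lower female-biased genes were Cyp2b9, Cyp2b13, Cyp17a1, Acot3, Hao2, Abcd2 and Cd36, with log2 changes of -4.88 to -1.54. Cd36, a fatty acid carrier, was at 45.0, 50.5 and 49.7 FPKM across wild type and 8.03, 11.4 and 9.13 FPKM in knockout. The number of higher male-biased genes was 10 without wild type replicate 3, 4 without knockout replicate 1, 3 without wild type replicate 2 and 2 without knockout replicate 3. The number of lower female-biased genes was 4 without wild type replicate 2 or any 1 knockout library, and 5 of 9 tested without wild type replicate 3, where Cyp2b13 and Hao2 fell under the minimum level. The summed level of the male-biased list was 8346 to 10486 FPKM across wild type and 24342 to 46700 FPKM in knockout, and that of the female-biased list 198 to 343 and 89.3 to 163 FPKM. Such a sum is governed by the most abundant genes of a list and does not describe each gene in it. The sex of the animals is not reported here. Neither its part in the level of Cyp7b1 nor that of these lists was tested.

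Clock genes were compared because Cyp7a1 follows the time of day. Of 17 tested genes limma called 0, and only Tef, above wild type, reached an unadjusted p under 0.05. Arntl and Npas2 were under the minimum level and were not tested. Arntl was at 0.746, 0.984 and 0.887 FPKM across wild type. In knockout it was at 0.414, 0.246 and 0.687 FPKM, all below wild type. For Npas2 the groups overlapped. The summed level of all 19 listed clock genes was 208 to 257 FPKM across wild type and 215 to 292 FPKM in knockout. Dbp, a clock output factor that activates Cyp7a1, was at 47.0, 34.2 and 49.4 FPKM across wild type and 38.9, 74.3 and 47.1 FPKM in knockout, with overlapping groups. Whether sampling time bears on Cyp7a1 was not tested.

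Of 12 genes with pericentral and 13 with periportal expression in the liver lobule, limma called 0. An unadjusted p under 0.05 was reached by 1 pericentral gene (below wild type) and by 3 periportal genes (2 above, 1 below). Without wild type replicate 3 the periportal gene Uroc1 was called lower (limma adjusted p 0.0323). The summed levels of both lists overlapped between groups. Of 12 Kupffer cell and macrophage markers all had a log2 change above 0 and limma called 0, while 5 reached an unadjusted p under 0.05, led by Marco, Lyz2 and C1qa (limma adjusted p 0.135, 0.163 and 0.186). Their summed level was 74.4 to 255 FPKM across wild type and 212 to 373 FPKM in knockout. Without wild type replicate 3, 8 of these 12 were called higher, and without knockout replicate 2, 1. Their part in the results for the enzymes was not tested. Of 10 sinusoidal endothelial and 6 stellate cell markers tested limma called 0, and Lyve1, below wild type, was the only one to reach an unadjusted p under 0.05.

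FTO acts on m6A, which lies mostly within the letters GGACT and close variants, so the transcripts were searched for that motif on the sense strand. In the GENCODE M21 transcript with the longest coding sequence, all 10 genes held at least 1 GGACT, as did 90.1% of 9786 tested genes. The density was 0.371 per kilobase for Akr1d1 to 2.06 for Baat, with a median of 1.04 over the 10 genes and 1.04 over the tested genes. Cyp7a1 had 4 matches in 4172 bases, of which 1 was coding, Cyp7b1 had 1 in 2166 bases and Cyp8b1 had 2 in 1950 bases. The coding matches of these 3 genes are shown 5′ to 3′ on the sense strand with the motif in capitals.
Cyp7a1, chr4:6269163-6269167, minus strand: gctaaggaGGACTtcactcta
Cyp7b1, chr3:18072656-18072660, minus strand: tgccttttGGACTcggaacaa
Cyp8b1, chr9:121915973-121915977, minus strand: aaagcgctGGACTtccagtcc
Cyp8b1, chr9:121915013-121915017, minus strand: cggaaagtGGACTtctacaag
Coordinates give the motif itself in mm10. Methylation was not measured, so these are matches of letters and not m6A sites.

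The 3′ UTR of Cyp7a1 is known for AU-rich elements, and it held TATTTAT 3 times in 2600 bases. Amacr held it 1 time in 1377 bases and the other 8 genes 0 times, against at least 1 match in 25.0% of 9584 tested genes with a 3′ UTR. The matches of Cyp7a1 are shown with the motif in capitals.
Cyp7a1, chr4:6266985-6266991, minus strand: tgaaaataTATTTATatataaat
Cyp7a1, chr4:6266968-6266974, minus strand: ataaattaTATTTATctttttct
Cyp7a1, chr4:6266806-6266812, minus strand: ttttctcaTATTTATttaaaata
Longer 3′ UTRs hold more matches, and that of Cyp7a1 was the longest of the 10 genes. Zfp36l1, which encodes a protein that binds such elements, was at 12.6, 11.9 and 9.06 FPKM across wild type and 17.4, 11.9 and 12.7 FPKM in knockout, with overlapping groups (adjusted p 0.428 in limma).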

How the data were processed

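The authors deposited FPKM values for 25690 genes under Ensembl identifiers in 6 libraries, and the submitters' processing notes name TopHat2 2.1.0, HTSeq, Cufflinks 2.2.1 and the build mm10 without giving their roles. The annotation release and the handling of reads that fit several genes are not given in the sources used here. GENCODE M21, on GRCm38 (the mm10 assembly), matched 24807 of the identifiers and supplied symbols, coordinates and transcripts. Promoters came from a set built on RefSeq start sites (GRCm38.p6). The set used here held entries for 5 of the 10 enzyme genes. Depth was inferred from the steps that single fragments leave in low FPKM values, searched in 964 single-transcript genes. Only implied depths of 2.5e+07 to 5e+07 fragments were kept, which left 49 to 60 values per library. Their median was 34140000 to 42530000 fragments per library. The chosen window bounds that median, so it is no independent measure of depth. Of the deposited values above 0, 50.7% have more than the 6 significant digits that Cufflinks writes, and 95.7% of those end in 5, as means of a pair of values would. No label says what may have been averaged, so the inferred depth is approximate and each FPKM may be a mean. Counts were not recovered, so no count model was used.

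Groups came from the genotype label, and replicate numbers follow sample order and pair nothing. Limma 3.58.1 in R 4.3.3 (trend, two-sided) was fitted to log2(FPKM + 1) of the 10405 genes that averaged 1 FPKM or more, p-values were adjusted over all of them by Benjamini-Hochberg, and a gene was called under 0.05. This scale understates the change of low genes. The script was tested on simulated data. Named are the 10 enzyme genes, Fto, called genes of the other lists or those of smallest p, tested enzymes of the pathway and defining markers. Other regulators and transporters named, and Dbp, Krt19 and Zfp36l1, were chosen after their values were seen. The members and lists were chosen with earlier results of these data known. Alternatives were a pseudocount of 0.1 (of 1 for the ratios), testing genes of any level, scaling by median ratio size factors or by quantiles, a robust empirical Bayes step, and leaving out each library in turn. For Fto and genes of the other lists these alternatives were added after the data were seen.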

Additional observations from a re-analysis of the deposited data

How the results depend on the processing

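The number of enzyme genes called higher was 2, and it was 1 with no filter on low values, where Cyp7b1 was lost (adjusted p 0.0576 in limma), and 1 to 2 when a library was left out. The number called lower was 0, and 0 to 1 when a library was left out. Under a pseudocount of 0.1, a robust empirical Bayes step, quantile normalization and median ratio size factors both counts were as in the report. The log2 change of Baat, -0.06, turned to 0.0035 under quantile normalization, and every other enzyme gene kept its direction in all 11 alternatives. The log2 difference of the Cyp8b1 to Cyp7a1 ratio was -2.17 with a pseudocount of 1 and -2.29 to -2.12 with a library left out. That of the Cyp7b1 to Cyp7a1 ratio was 0.52 and 0.21 to 0.76. Over all tested genes 287 were called, 92 to 552 with a library left out (most without wild type replicate 3) and 180 with no filter; other settings gave 295 to 405. No paired analysis was possible because the labels carry no replicate numbers that the groups share. The number of libraries, 3 a group, limits the precision, and the part of depth in it was not tested.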
